A study of Homo sapiens with 10 samples.

Results

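Serpins are a superfamily of proteins named for the inhibitors of serine proteases among them, and 32 of them are described here in the long RNA of BEAS-2B cells. They were taken from the rows whose symbol is SERPIN followed by a clade letter from A to I and a number, in a table with 20284 protein coding rows and 57773 rows in all, and each is protein coding. Clade A held 10 of them, clade B 12, clades E, F and I 2 each, and clades C, D, G and H 1 each. BEAS-2B is an immortalised line of human bronchial epithelial cells, from which stable lines had been made with a TAF1C vector or an empty vector under the pCMV6 promoter. The groups were 3 libraries labelled TAF1C and 2 empty vector libraries, all from cells grown in LHC9 medium with 10% FBS under G418 selection. The labels do not say whether a line was 1 clone or a pool, nor whether replicates came from separate cultures, and a p here measures only the spread between these libraries. The comparison asked which serpins differed in RNA level between TAF1C vector lines and empty vector lines.

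TAF1C belongs to SL1, a complex that brings RNA polymerase I to the promoters of ribosomal RNA genes. Its own transcript (ENSG00000103168) was at 64.0, 59.0 and 67.04 CPM in the libraries labelled TAF1C and at 64.4 and 77.7 CPM in those with the empty vector, where CPM is the count relative to the library size after TMM scaling. The groups overlapped, and the log2 change, the log2 of the fitted TAF1C over empty vector fold, was -0.17 ± 0.13 (SE; edgeR adjusted p = 0.353). With library totals as the scale it fell by 0.38 in log2 units (edgeR adjusted p = 0.0316), and without empty vector replicate 1 by 0.36. Fits with 1 empty vector library hold no spread of that group, so only their log2 changes are given. Over the 14 alternatives the log2 change of TAF1C ran from -0.38 to -0.06. The libraries are therefore called by their labels.

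An inhibitory serpin offers a protease a flexible loop as bait, is cut there, and snaps into a new fold that traps the protease in a covalent complex. Clade B serpins act mostly inside cells, where they meet proteases of lysosomes and granules, whereas most others are secreted and act in blood, tissue fluid and matrix. In the airway the balance of serpins and proteases is known above all from SERPINA1, whose inherited deficiency leaves lung elastin open to neutrophil elastase. A few serpins inhibit nothing, among them SERPINH1, a chaperone of collagen, and SERPINF1, a secreted factor that acts on neurons and blood vessels.

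The libraries labelled TAF1C held 37533366, 36481548 and 34212883 counts, against 22809601 and 28476151 in the empty vector libraries. Replicates differed by more than counting noise, with a chi-square per degree of freedom between 4.87 and 8.84 within the TAF1C label and of 152 between the empty vector libraries. Of 15 airway and squamous markers, 12 reached 1 CPM in a library, and they summed to 1349 to 1465 CPM in the libraries labelled TAF1C, against 385 and 380 CPM in those with the empty vector. Most of that came from KRT7, KRT8 and KRT18, keratins of simple epithelium, which all rose (edgeR adjusted p of at most 0.00114). Of the other 7 tested markers 2 fell, the adhesion molecule EPCAM, at 0.057 to 0.433 CPM in the libraries labelled TAF1C against 14.7 and 1.10 CPM with the empty vector (edgeR adjusted p = 0.0236), and the ciliated cell factor FOXJ1, at 0.147 to 0.513 CPM against 2.64 and 6.04 CPM (edgeR adjusted p = 0.00747). The EPCAM call was lost without any 1 library labelled TAF1C. EPCAM and FOXJ1 were both under 1 CPM in all 3 libraries labelled TAF1C. Both were tested through the empty vector libraries alone, where they had to be higher. EPCAM could not be tested without either of those libraries. The basal and adhesion markers KRT5, TP63 and CDH1 were at most 1.45 CPM in the libraries labelled TAF1C and at most 2.97 CPM with the empty vector. A list of 16 photoreceptor markers summed to 14.4 to 19.6 CPM in the libraries labelled TAF1C and to 1447 and 1248 CPM with the empty vector, and 13 of 15 tested fell. All 11 tested of 14 neuron markers fell, with sums of 12.3 to 12.96 CPM against 553 and 591 CPM. Of those that fell, 5 photoreceptor and 5 neuron markers did not reach 1 CPM in any of the 3 libraries labelled TAF1C and were tested through the empty vector libraries alone, where they had to be higher. No marker of any list was at 0 in all libraries of a group. In bulk RNA, fewer cells of a type and less RNA per cell cannot be told apart, and the part of these markers in the serpin results was not tested. The photoreceptor and neuron markers differed along with the vector, so a difference in the cells cannot be told apart from one of the vector. Whether both groups held the same kind of cell was not tested.

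Of the 32 serpins, 16 reached 1 CPM in at least 2 libraries and were tested. In edgeR's quasi-likelihood test 5 rose in the libraries labelled TAF1C: SERPINA1, SERPINH1, SERPINB8, SERPINB6 and SERPINB9. That is 31.2% of the tested serpins, while 15.9% of all 18402 tested genes rose. SERPINF1 and SERPIND1 fell, which is 12.5% of the tested serpins, while 22.6% of all tested genes fell. The other 9 did not pass at an adjusted p of 0.05, and 8 of the 16 had an unadjusted p under 0.05. Without any 1 library labelled TAF1C, 4 rose and 0 fell. Of all tested genes 5.84% to 6.48% rose and 10.7% to 11.3% fell in those fits. Since a serpin high in 1 group alone could pass the minimum through that group, these shares describe the tested serpins and not the family.

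By clade, 3 of 6 tested clade B serpins rose, as did 1 of 2 in clade A and the single clade H member. The falls were 1 of 2 in clade F and the single clade D member. The median log2 change was 0.29 over the tested serpins and -0.10 over all tested genes, and all values below are on that scale. With library totals in place of TMM the median of all genes was -0.33, and the split of calls over all genes moved from 2922 raised and 4158 lowered to 2269 and 5021, or from 41.3% to 31.1% higher. On that scale 4 serpins rose, since SERPINB9 no longer passed, and 2 fell.

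All 3 libraries labelled TAF1C lay above both empty vector libraries for 9 tested serpins, or 56.2%, while 29.8% of all tested genes did so. They lay below both for 3 serpins, or 18.8%, while 34.4% of all tested genes did so. The tested serpins summed to 600.4, 571 and 591 CPM in the libraries labelled TAF1C and to 242 and 439.9 CPM in those with the empty vector. CPM are not divided by gene length, and no lengths were used, so levels of different serpins are not ranked.

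**Figure D1:**
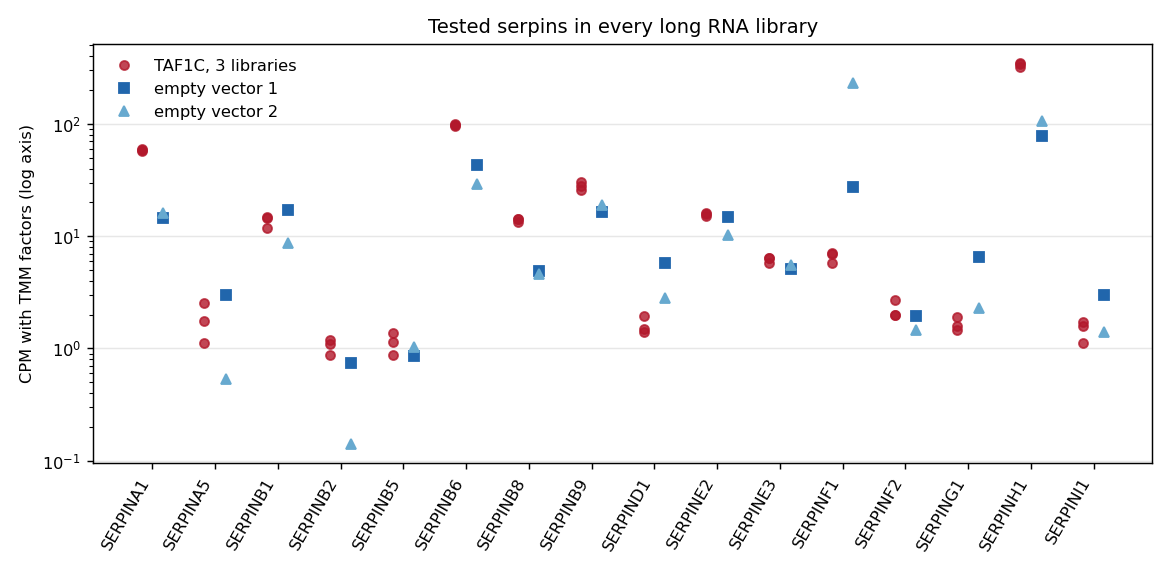
Level of each of the 16 tested serpins in every library, in CPM with TMM factors on a log axis, with circles for the 3 libraries labelled TAF1C, squares for empty vector 1 and triangles for empty vector 2. For SERPINH1 the libraries labelled TAF1C sit at 318 to 348 CPM, above both empty vector libraries, and for SERPINF1 at 5.81 to 7.06 CPM, below empty vector libraries at 27.7 and 231 CPM.

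The promoters of the 5 serpins that rose are shown because these genes moved the same way. Each sequence runs 5′ to 3′ on the gene's own strand from 250 bases before the RefSeq start to 50 bases after it, in GRCh38.p14, at the first start the table lists. Capitals mark matches, on either strand, to TATAAA (the TATA box), CCAAT (the CCAAT box), GGGCGG (the GC box), TGANTCA (the AP-1 motif), CACGTG (the E-box) or GAANNTTC (the heat shock element).
SERPINA1: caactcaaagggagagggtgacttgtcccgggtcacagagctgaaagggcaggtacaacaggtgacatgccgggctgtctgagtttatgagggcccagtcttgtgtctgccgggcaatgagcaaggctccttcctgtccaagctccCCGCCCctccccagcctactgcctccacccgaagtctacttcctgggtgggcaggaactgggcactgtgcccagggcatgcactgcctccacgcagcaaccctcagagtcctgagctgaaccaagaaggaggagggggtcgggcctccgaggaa
SERPINB6: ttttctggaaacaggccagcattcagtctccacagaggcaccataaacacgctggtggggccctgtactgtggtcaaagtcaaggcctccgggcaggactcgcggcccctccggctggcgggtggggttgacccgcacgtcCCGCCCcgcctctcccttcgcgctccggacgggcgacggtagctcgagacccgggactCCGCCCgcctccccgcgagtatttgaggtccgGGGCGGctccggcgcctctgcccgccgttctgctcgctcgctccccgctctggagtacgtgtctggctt
SERPINB8: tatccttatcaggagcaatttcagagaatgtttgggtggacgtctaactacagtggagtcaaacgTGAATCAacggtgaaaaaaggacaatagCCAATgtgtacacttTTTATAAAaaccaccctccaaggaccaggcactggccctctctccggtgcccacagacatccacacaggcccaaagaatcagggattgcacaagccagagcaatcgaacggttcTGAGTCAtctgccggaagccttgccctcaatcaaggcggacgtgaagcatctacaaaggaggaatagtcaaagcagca
SERPINB9: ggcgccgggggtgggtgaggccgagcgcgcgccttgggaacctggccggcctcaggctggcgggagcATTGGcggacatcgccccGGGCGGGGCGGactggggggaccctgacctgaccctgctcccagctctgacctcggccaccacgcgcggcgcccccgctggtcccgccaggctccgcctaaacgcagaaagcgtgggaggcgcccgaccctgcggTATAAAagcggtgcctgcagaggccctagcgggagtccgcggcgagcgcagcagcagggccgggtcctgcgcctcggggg
SERPINH1: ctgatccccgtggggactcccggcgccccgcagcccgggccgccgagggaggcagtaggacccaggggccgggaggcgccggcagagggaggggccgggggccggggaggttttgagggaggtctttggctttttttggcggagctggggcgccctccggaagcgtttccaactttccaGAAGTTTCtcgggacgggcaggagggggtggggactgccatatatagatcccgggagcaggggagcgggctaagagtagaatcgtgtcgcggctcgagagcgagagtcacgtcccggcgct
The SERPINA1 window lies at chr14:94390586-94390885 on the minus strand, that of SERPINB6 at chr6:2971518-2971817 on the minus strand, and that of SERPINB8 at chr18:63969831-63970130 on the plus strand. Those of SERPINB9 and SERPINH1 lie at chr6:2903260-2903559 on the minus strand and at chr11:75562003-75562302 on the plus strand. These 5 windows did not share a motif: GC boxes stood in SERPINA1 (1), SERPINB6 (3) and SERPINB9 (2, overlapping by a base). The matches depended on the start, since SERPINA1 and SERPINH1 have 2 listed starts each and SERPINB6 has 4. At another start SERPINH1 also held GGGCGG and CCAAT, and SERPINB6 held TATAAA. SERPINB8 held 2 TGANTCA matches, a CCAAT box and 2 TATAAA matches that overlap on opposite strands. SERPINB9 also held 1 TATAAA match and a CCAAT box, and SERPINH1 held 1 GAANNTTC match. Bases G and C made up 48.7% of the SERPINB8 window and between 61.7% and 75.7% of the other windows, against a median of 58.7% over all promoters in the RefSeq table.

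RefSeq promoters were matched for 27 of the 32 serpins, the others being SERPINB10, SERPINC1, SERPINF1, SERPINF2 and SERPING1. Counting any listed start, 10 of these 27 serpins held TATAAA, and 11.5% of all 35116 promoters did. TGANTCA stood in 8 serpins and in 7.71% of all promoters, and GAANNTTC in 4 and 6.77%. CCAAT and GGGCGG stood in 9 serpins each, with 34.6% and 45.0% of all promoters. CACGTG stood in SERPINE2 alone, with 7.26% of all promoters. Serpins with several starts had more windows in which to match than a single promoter, so these counts are descriptions of letters only.

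The plasminogen system, in which activators turn plasminogen into the fibrin-dissolving protease plasmin, is held in check by several serpins. Its other genes were read from a list of 10, of which 9 were tested, 5 rose and none fell, with a median log2 change of 0.75. For this list and those below, the shares over all tested genes were 15.9% raised and 22.6% lowered. PLAU, the urokinase activator, which SERPINE2 and SERPINB2 inhibit, was at 7.81, 7.71 and 9.90 CPM in the libraries labelled TAF1C and at 4.53 and 3.91 CPM with the empty vector. It rose by 1.004 ± 0.25 (SE) in log2 units (edgeR adjusted p = 0.0277). PLAT, the tissue-type activator, did not pass, with a log2 change of 0.33 ± 0.19 (SE, edgeR adjusted p = 0.202). ANXA2, an annexin that docks plasminogen and its activator at the cell surface, was at 911, 932 and 918 CPM in the libraries labelled TAF1C and at 299 and 343 CPM with the empty vector (log2 change 1.52 ± 0.15 SE, edgeR adjusted p = 0.00147). Its partner S100A10 rose by 0.48 ± 0.15 on the same scale (edgeR adjusted p = 0.0471), the receptor PLGRKT by 0.75 ± 0.16 (edgeR adjusted p = 0.015) and the matrix protein THBS1 by 0.76 ± 0.13 (edgeR adjusted p = 0.00832). PLAUR, the urokinase receptor, had a log2 change of 0.76 ± 0.29 (SE) and did not pass (edgeR adjusted p = 0.0902). VTN, the adhesive plasma protein vitronectin, was at 1.23, 1.38 and 1.61 CPM in the libraries labelled TAF1C and at 13.97 and 1.53 CPM with the empty vector, without passing (edgeR adjusted p = 0.064). The calls of PLAU, PLGRKT, THBS1 and S100A10 were each lost without any 1 library labelled TAF1C, with an edgeR adjusted p of up to 0.156, while that of ANXA2 was not. Without empty vector replicate 2 the log2 changes of PLAT, PLAUR and VTN were 0.39, 1.25 and -3.35. Without replicate 1 they were 0.18, 0.32 and -0.19. The 2 clade E serpins described here did not pass. SERPINE2 (ENSG00000135919), protease nexin-1, which inhibits thrombin and urokinase, was at 15.2, 15.7 and 16.0 CPM in the libraries labelled TAF1C and at 14.9 and 10.2 CPM with the empty vector (log2 change 0.32 ± 0.22 SE, edgeR adjusted p = 0.289). SERPINE3 (ENSG00000253309) was at 6.44, 5.71 and 6.34 CPM, against 5.13 and 5.51 CPM with the empty vector (edgeR adjusted p = 0.498). It overlaps the protein coding gene INTS6, at 93.5, 96.4 and 91.5 CPM in the libraries labelled TAF1C and at 54.6 and 77.1 CPM with the empty vector, whose part in the SERPINE3 count was not tested.

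SERPINH1 (ENSG00000149257), also known as HSP47, is a chaperone of the endoplasmic reticulum that binds folded procollagen and inhibits no protease. It was at 348, 318 and 341 CPM in the libraries labelled TAF1C and at 77.2 and 106 CPM in those with the empty vector. The groups did not overlap, and the difference was larger than the spread in either, at 336 ± 15.8 CPM (SD, n = 3) against 91.7 ± 20.5 CPM (SD, n = 2). SERPINH1 rose 3.66-fold, with a log2 change of 1.87 ± 0.18 (SE) and an edgeR adjusted p = 0.00133. Reads of its pseudogene SERPINH1P1, with 70, 41 and 48 counts in the libraries labelled TAF1C and 71 and 36 with the empty vector, may have been shared with it, since the counting of shared reads was not given in the sources used here.

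The other enzymes and chaperones that fold procollagen were counted from a list with 15 members in the table, all tested, of which 6 rose, 1 fell and 8 did not pass, with a median log2 change of 0.51. FKBP10, a prolyl isomerase that works with SERPINH1 on procollagen, was at 214, 206 and 208 CPM in the libraries labelled TAF1C and at 64.0 and 72.4 CPM with the empty vector (log2 change 1.62 ± 0.12 SE, edgeR adjusted p = 0.000603). The lysyl hydroxylases PLOD1 and PLOD3 rose by 1.36 ± 0.10 (SE, edgeR adjusted p = 0.000715) and 1.38 ± 0.13 (SE, edgeR adjusted p = 0.00141). LEPREL2, a prolyl hydroxylase of collagen, went the other way, at 32.4, 28.8 and 31.7 CPM against 78.0 and 77.6 CPM with the empty vector, and fell by 1.33 in log2 units (edgeR adjusted p = 0.000862). The 10 fibroblast markers summed to 297, 305 and 292 CPM in the libraries labelled TAF1C and to 212 and 186 CPM with the empty vector. Most of that was the intermediate filament VIM, which rose (log2 change 1.02, edgeR adjusted p = 0.00441), and without it the sums were 50.1, 34.0 and 40.5 CPM against 98.4 and 46.5 CPM. THY1 fell by 2.60 in log2 units (edgeR adjusted p = 0.004), and the collagens COL1A1, COL1A2 and COL3A1 did not pass, with log2 changes of 0.26, -2.57 and -2.40.

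SERPINA1 (ENSG00000197249), alpha-1-antitrypsin, is secreted mainly by the liver and also by airway cells, and its chief target is neutrophil elastase. It was at 58.9, 59.8 and 57.0 CPM in the libraries labelled TAF1C and at 14.4 and 16.1 CPM in those with the empty vector. Both groups were tight and far apart, with means of 58.6 ± 1.43 CPM (SD, n = 3) and 15.3 ± 1.24 CPM (SD, n = 2). SERPINA1 rose 3.84-fold (log2 change 1.94 ± 0.12 SE, edgeR adjusted p = 0.000444). The 15 markers of hepatocytes, the main source of SERPINA1 in the body, summed to 34.96, 33.1 and 31.3 CPM in the libraries labelled TAF1C and to 134 and 20.6 CPM with the empty vector, and ALB was under 0.5 CPM in every library. The 134 CPM held 106 CPM of TF, the transferrin gene, which was at most 1.57 CPM elsewhere. APOC3, an apolipoprotein, was the 1 marker of 7 tested that rose, at 20.8, 23.4 and 19.3 CPM against 13.2 and 15.4 CPM (edgeR adjusted p = 0.0471, and up to 0.17 without a library labelled TAF1C). Of 11 serine proteases of leukocytes, among them the elastase gene ELANE, 1 reached the minimum for the test. That was AZU1, an inactive relative of elastase, at 0.285, 0.765 and 0.680 CPM in the libraries labelled TAF1C against 1.34 and 1.49 CPM with the empty vector (edgeR adjusted p = 0.0938).

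Among the intracellular clade B serpins, SERPINB6, SERPINB8 and SERPINB9 rose. SERPINB6 (ENSG00000124570), an inhibitor of cathepsin G and thrombin, was at 99.2, 98.2 and 96.0 CPM in the libraries labelled TAF1C and at 42.7 and 29.1 CPM in those with the empty vector. That was 2.73-fold higher, with the empty vector libraries further apart than those labelled TAF1C (log2 change 1.45 ± 0.18 SE, edgeR adjusted p = 0.00325). SERPINB8 (ENSG00000166401), which inhibits the proprotein convertase furin in vitro, was at 14.1, 14.3 and 13.4 CPM in the libraries labelled TAF1C and at 4.91 and 4.62 CPM in those with the empty vector. It rose 2.92-fold (log2 change 1.54 ± 0.20 SE, edgeR adjusted p = 0.00322). SERPINB9 (ENSG00000170542), the inhibitor of the cytotoxic protease granzyme B, was at 26.0, 30.6 and 27.9 CPM in the libraries labelled TAF1C and at 16.4 and 19.1 CPM in those with the empty vector. Its rise was the smallest of the 5, at 1.59-fold (log2 change 0.67 ± 0.15 SE, edgeR adjusted p = 0.0209). The SERPINB9 call was lost with library totals, with no minimum level, and without any 1 library labelled TAF1C, where its edgeR adjusted p reached 0.0947. SERPINB8 overlaps an uncharacterised RefSeq locus and SERPINB9 overlaps its antisense gene SERPINB9-AS1. Whether the counting used strand was not given in the sources used here, so reads of such partners cannot be told apart.

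Cysteine proteases and serine proteases of epithelia were counted from 2 further lists, in which furin is the only target named above. Cathepsin G (CTSG) and granzyme B (GZMB) belong to the leukocyte list, and neither reached the minimum for the test. Of 15 cysteine proteases, cathepsins and caspases, 7 rose, none fell and 8 did not pass, with a median log2 change of 0.59. CTSZ, a lysosomal carboxypeptidase, rose by 1.33 ± 0.11 (SE, edgeR adjusted p = 0.000891), the lysosomal endopeptidase CTSL by 0.95 ± 0.16 (edgeR adjusted p = 0.00745) and the lysosomal protease CTSB by 0.75 ± 0.13 (edgeR adjusted p = 0.0084). CASP8, the caspase that starts death receptor signalling, rose by 0.81 ± 0.16 (SE, edgeR adjusted p = 0.0129). The calls of CTSB and CASP8 were lost without any 1 library labelled TAF1C, with an edgeR adjusted p of up to 0.0816. Of 26 serine proteases of epithelia, 12 were tested, 4 rose and 1 fell, with a median of 0.04. FURIN, the convertase named above, was at 102, 94.0 and 106 CPM in the libraries labelled TAF1C and at 50.3 and 48.0 CPM with the empty vector (log2 change 1.03 ± 0.11 SE, edgeR adjusted p = 0.00188). HTRA1 and HTRA3, secreted serine proteases that cut matrix proteins, rose by 1.46 ± 0.12 (SE, edgeR adjusted p = 0.000818) and 3.47 ± 0.35 (SE, edgeR adjusted p = 0.00161). PCSK6, another convertase, fell by 3.15 in log2 units (edgeR adjusted p = 0.0102), a call lost without replicate 2 or 3 of the libraries labelled TAF1C, and its log2 change was -1.88 without empty vector replicate 2.

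The other tested clade B serpins did not pass. SERPINB1 (ENSG00000021355), an intracellular inhibitor of elastase, was at 14.5, 11.9 and 14.8 CPM in the libraries labelled TAF1C, between the 17.2 and 8.64 CPM of the empty vector libraries (log2 change 0.09 ± 0.32 SE, edgeR adjusted p = 0.85). SERPINB2 (ENSG00000197632), a urokinase inhibitor known from macrophages and keratinocytes, was at 1.198, 1.09 and 0.866 CPM against 0.743 and 0.142 CPM with the empty vector, and reached the minimum through the libraries labelled TAF1C alone (edgeR adjusted p = 0.205). SERPINB5 (ENSG00000206075), known as maspin, was at 1.37, 1.15 and 0.866 CPM, with 0.855 and 1.03 CPM with the empty vector (edgeR adjusted p = 0.633).

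**Figure D2:**
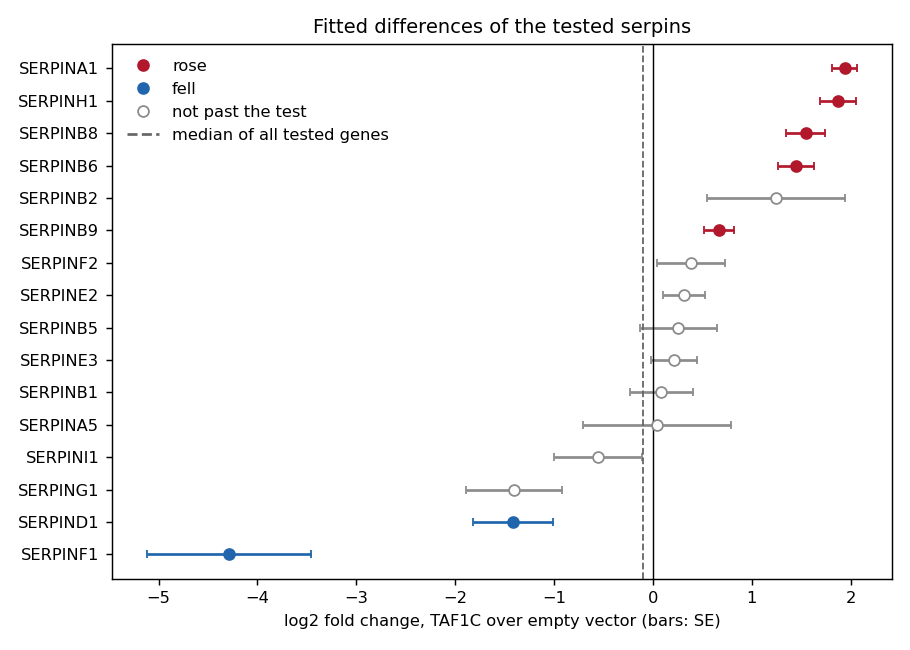
Fitted log2 change, TAF1C over empty vector, of the 16 tested serpins with bars of 1 SE, filled where the gene rose or fell at an edgeR adjusted p of 0.05. The dashed line is the median of all tested genes at -0.10, with 5 filled points to the right of it and SERPIND1 and SERPINF1 filled to the left.

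SERPINF1 (ENSG00000132386), pigment epithelium-derived factor, is secreted by many tissues, limits the growth of blood vessels and supports neurons. It was at 6.96, 7.06 and 5.81 CPM in the libraries labelled TAF1C and at 27.7 and 231 CPM in those with the empty vector. The groups did not overlap, but empty vector replicate 2 was 8.35-fold above replicate 1, so that the empty vector mean was 129 ± 144 CPM (SD, n = 2), while that of the libraries labelled TAF1C was 6.61 ± 0.69 CPM (SD, n = 3). SERPINF1 had a log2 change of -4.29 ± 0.83 (SE; edgeR adjusted p = 0.0117). Leaving out empty vector replicate 1 gave -5.19 and leaving out replicate 2 gave -2.10, and the call was lost without any 1 library labelled TAF1C, with an edgeR adjusted p of up to 0.0673. Markers of retinal pigment epithelium, the tissue that gave SERPINF1 its name, summed to 23.5, 20.3 and 23.0 CPM over 12 genes in the libraries labelled TAF1C and to 851 and 159 CPM with the empty vector. DCT, at 820 and 147 CPM with the empty vector, in the opposite order to SERPINF1, made up most of that sum, and RPE65 was under 1 CPM in every library. Without DCT the sums were 23.1, 20.1 and 22.5 CPM in the libraries labelled TAF1C and 30.6 and 11.8 CPM with the empty vector. Of 6 tested markers DCT fell and MITF rose, at 9.75, 9.85 and 9.21 CPM against 4.13 and 2.45 CPM (edgeR adjusted p = 0.0128), a call lost without any 1 library labelled TAF1C. DCT, at 0.371, 0.206 and 0.495 CPM in the libraries labelled TAF1C, was tested through the empty vector libraries alone, where it had to be higher. SERPINF2 (ENSG00000167711), alpha-2-antiplasmin, the plasma inhibitor of plasmin, lies beside SERPINF1 on chromosome 17. It was at 1.97, 1.97 and 2.72 CPM against 1.93 and 1.46 CPM with the empty vector and did not pass (edgeR adjusted p = 0.408).

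SERPIND1 (ENSG00000099937), heparin cofactor II, which inhibits thrombin, was at 1.48, 1.41 and 1.95 CPM in the libraries labelled TAF1C and at 5.80 and 2.81 CPM in those with the empty vector. It fell by 1.41 in log2 units (SE 0.41, edgeR adjusted p = 0.04). The log2 change was -0.86 without empty vector replicate 1, and the call was lost without any 1 library labelled TAF1C and under the other 2 filters, with an edgeR adjusted p of up to 0.145. SERPIND1 overlaps the protein coding gene PI4KA, which was at 106, 96.7 and 104 CPM in the libraries labelled TAF1C and at 211 and 157 CPM with the empty vector (edgeR adjusted p = 0.00938, and up to 0.0591 without a library labelled TAF1C). The part of PI4KA reads in the SERPIND1 count was not tested. SERPING1 (ENSG00000149131), the inhibitor of complement C1 and of kallikrein, was at 1.45, 1.59 and 1.92 CPM in the libraries labelled TAF1C, below the 6.50 and 2.27 CPM of the empty vector libraries. It did not pass (log2 change -1.41 ± 0.49 SE, edgeR adjusted p = 0.0675), but did with DESeq2 (adjusted p = 0.0443). The size of the SERPING1 difference hung on the empty vector library kept, at -2.01 with replicate 2 dropped and -0.53 with replicate 1 dropped.

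Of 17 genes of coagulation, kinins and complement, 13 were tested, 2 rose, 1 fell and 10 did not pass, with a median log2 change of -0.68. Over all tested genes 15.9% rose and 22.6% fell, so the list held no excess of calls in either direction. THBD, thrombomodulin, the surface receptor that turns thrombin towards activating protein C, was at 66.8, 59.9 and 66.3 CPM in the libraries labelled TAF1C and at 5.09 and 6.58 CPM with the empty vector (log2 change 3.46 ± 0.18 SE, edgeR adjusted p = 0.000259). F3, tissue factor, which starts coagulation, was at 50.8, 55.9 and 53.7 CPM against 14.7 and 11.6 CPM (log2 change 2.03 ± 0.16 SE, edgeR adjusted p = 0.000742). The thrombin receptor F2R fell by 1.62 in log2 units (edgeR adjusted p = 0.0081, and 0.0527 without TAF1C replicate 2). SERPINA5 (ENSG00000188488), the inhibitor of activated protein C, was at 1.77, 1.12 and 2.54 CPM in the libraries labelled TAF1C, between 2.97 and 0.533 CPM in those with the empty vector (edgeR adjusted p = 0.967). SERPINI1 (ENSG00000163536), neuroserpin, which inhibits the tissue-type plasminogen activator in the nervous system, was at 1.60, 1.12 and 1.73 CPM against 2.97 and 1.39 CPM with the empty vector (edgeR adjusted p = 0.363).

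The log2 changes of these weaker serpins depended on the empty vector library. Leaving out 1 library each, they ran from -0.75 to 1.69 for SERPINA5 and from 0.47 to 2.79 for SERPINB2. They ran from 0.04 to 0.55 for SERPINE2, from -2.01 to -0.53 for SERPING1 and from -1.04 to 0.03 for SERPINI1. SERPINB1 moved in opposite directions, at 0.60 without empty vector replicate 1 and -0.36 without replicate 2. SERPINA1, SERPINH1, SERPINB6 and SERPINB8 passed in each fit that left out 1 library labelled TAF1C.

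**Figure D3:**
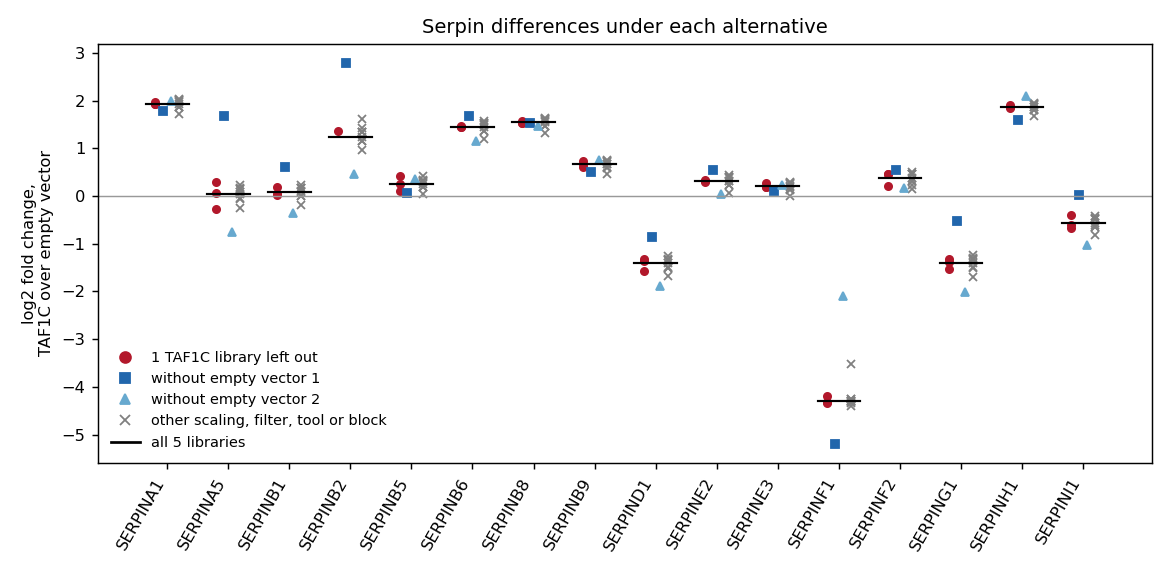
Log2 fold change, TAF1C over empty vector, of each tested serpin in the fit on all 5 libraries (bar) and under the 14 alternatives, with circles for fits without 1 library labelled TAF1C, a square or triangle for the fit without empty vector 1 or 2, and crosses for other scalings, filters, tools or the replicate block. SERPINA1 stays between 1.73 and 2.03, SERPINF1 runs from -5.19 to -2.10, and SERPINA5, SERPINB1, SERPINE3 and SERPINI1 cross 0.

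The 16 serpins below the minimum were SERPINA3, A4, A6, A7, A9, A10, A11 and A12, SERPINB3, B4, B7, B10, B12 and B13, SERPINC1 and SERPINI2. All 32 serpins had a count in some library, with 31, 32 and 31 of them in the libraries labelled TAF1C and 32 and 30 in the empty vector libraries. The 16 together had 157, 129 and 168 counts in the libraries labelled TAF1C and 278 and 60 counts in the empty vector libraries. None exceeded 0.835 CPM in a library labelled TAF1C. SERPINA10, which inhibits coagulation factor X with protein Z, stood apart with 119 counts, or 4.42 CPM, in empty vector replicate 1, against 7 in replicate 2 and 14, 5 and 20 in the libraries labelled TAF1C. Empty vector replicate 1 exceeded replicate 2 for 15 of these 16 serpins and for 10 of the 16 tested ones. Over all rows, 80.1% had a count in replicate 1 and 64.7% in replicate 2, which is another measure. How many of all genes were higher in replicate 1 was not counted, so whether serpins differed from other genes in this was not tested. SERPINC1, antithrombin, had 18, 14 and 11 counts in the libraries labelled TAF1C and 27 and 4 with the empty vector. SERPINB3 and SERPINB4, near-identical neighbours first known as squamous cell carcinoma antigens, had at most 12 counts in a library, and reads may have been split between them.

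Some serpin genes lie in clusters, and their order was taken from RefSeq genes of GRCh38, while the deposited counts used hg19. On chromosome 14 a cluster of 9 clade A genes held SERPINA1, which rose, between SERPINA6 and SERPINA11, which were below the minimum. The only other tested gene of that cluster was SERPINA5. On chromosome 18, of 9 clade B genes 3 were tested, and SERPINB8 at the end of the row rose while SERPINB2 and SERPINB5 did not pass. On chromosome 6 the order is SERPINB1, SERPINB9 and SERPINB6, of which the last 2 rose. The genes flanking SERPINH1, GDPD5 and MAP6, fell, with log2 changes of -1.86 and -5.24 (edgeR adjusted p = 0.019 and 0.00489), opposite to SERPINH1. The GDPD5 call was lost without any 1 library labelled TAF1C, and its log2 change was -0.998 without empty vector replicate 1. MAP6, at 0.855, 0.853 and 0.773 CPM in the libraries labelled TAF1C and 53.9 and 9.03 CPM with the empty vector, was tested through the empty vector libraries alone, where it had to be higher, and could not be tested without either of them.

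**Figure D4:**
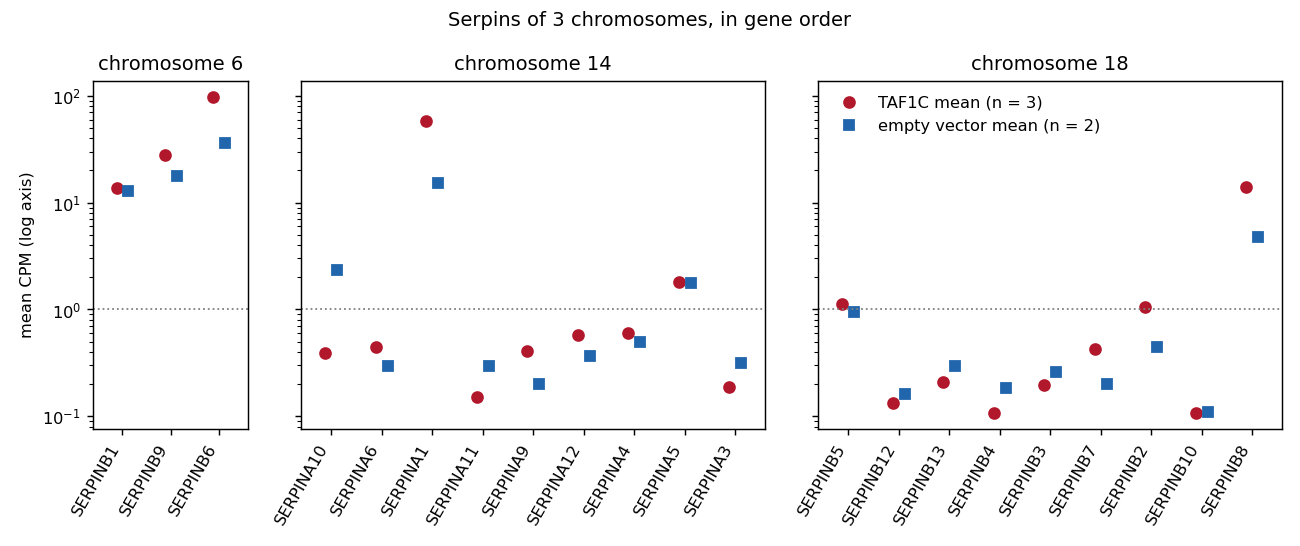
Mean level in CPM on a log axis, circles for TAF1C (n = 3) and squares for empty vector (n = 2), of the serpins on chromosomes 6, 14 and 18 in gene order, with the dotted line at 1 CPM. SERPINA1 at 58.6 CPM and SERPINB8 at 13.9 CPM in the libraries labelled TAF1C stand above neighbours near or under 1 CPM, except SERPINA5 and, with the empty vector, SERPINA10.

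Receptors take up complexes of serpins with proteases and clear them. Of 8 in the list, 7 were tested, 1 rose and 3 fell, with a median log2 change of -0.39. SORT1, a sorting receptor, rose by 0.66 ± 0.14 (SE, edgeR adjusted p = 0.0165), while LRP1, the main receptor for such complexes, did not pass (-0.36 ± 0.43 SE, edgeR adjusted p = 0.544). LRP1 was at 0.59 without empty vector replicate 1 and at -0.98 without replicate 2. SORL1 and VLDLR fell, with log2 changes of -3.39 and -3.04 (edgeR adjusted p = 0.0108 and 0.0165), and with -1.88 and -1.49 without empty vector replicate 1. The calls of SORT1, SORL1, VLDLR and LRP2 were each lost without any 1 library labelled TAF1C. LRP2 fell by 4.54 (edgeR adjusted p = 0.0493) with a high value in empty vector replicate 1, at 2.91, 3.12 and 3.15 CPM in the libraries labelled TAF1C against 140 and 2.06 CPM. Without that replicate its log2 change was 0.50.

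Other families of protease inhibitors held 34 genes, of which 20 were tested, 5 rose and 2 fell, with a median log2 change of 0.14. TFPI and TFPI2, Kunitz inhibitors of the tissue factor pathway and of plasmin, rose by 1.03 ± 0.12 (SE, edgeR adjusted p = 0.00248) and 1.40 ± 0.12 (SE, edgeR adjusted p = 0.000853). The cystatins CST3 and CST6, which inhibit cysteine proteases, rose by 0.92 ± 0.17 (SE, edgeR adjusted p = 0.0101) and 0.91 ± 0.18 (SE, edgeR adjusted p = 0.0119). The calls of CST3 and CST6 were lost without replicate 1 or 3 of the libraries labelled TAF1C, with an edgeR adjusted p of up to 0.0662.

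**Figure D5:**
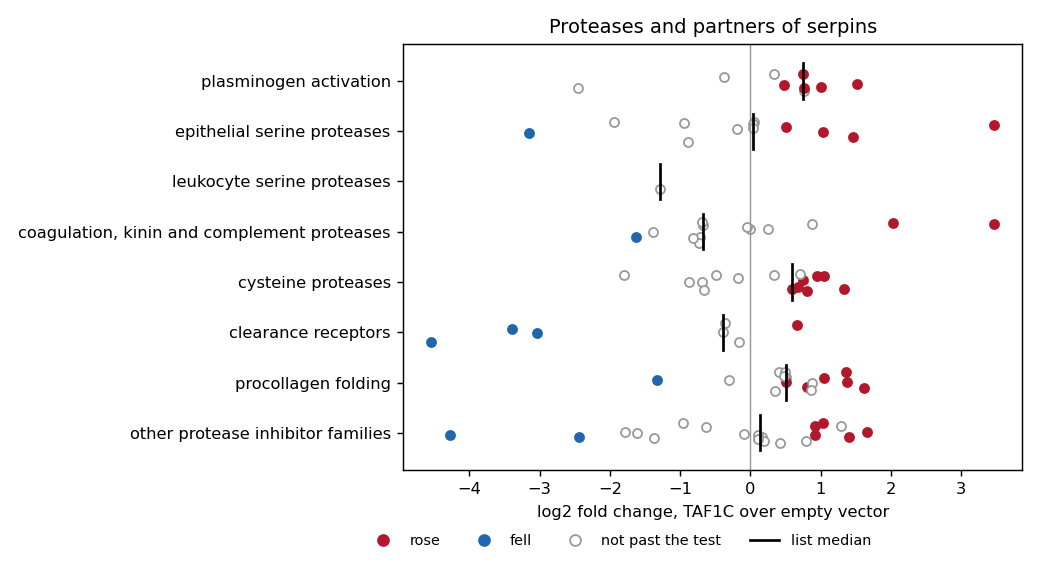
Log2 fold change, TAF1C over empty vector, of the tested genes in 8 lists of proteases, receptors, collagen-folding proteins and other inhibitors, 1 point a gene, red where it rose, blue where it fell and open where it did not pass, with a black bar at each list's median. The plasminogen activation list has its median at 0.75 with 5 red and no blue points, and the clearance receptors have theirs at -0.39 with 3 blue points and 1 red point. Over all tested genes 15.9% rose and 22.6% fell.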

How the data were processed

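Long RNA libraries were made with NEBNext Ultra from ribosomal RNA depleted RNA of the mirVana kit, per the labels' protocols. Values deposited by the authors for long RNA are raw counts per gene, which are whole and sum to another total for each library. The submitters' processing notes name hg19 and DESeq2, Cufflinks 2.2.1, HISAT2, Bowtie2 2.2.4 and Trimmomatic 0.36, with no role for any of them. The annotation, the treatment of shared reads and the use of strand are not given in the sources used here. The small RNA tables were not used here. Groups came from the labels, 3 libraries labelled TAF1C and 2 empty vector libraries.

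Rows that share a symbol (236 of 55771 symbols) were summed. The 18402 genes that reached 1 CPM in 2 or more libraries were tested with edgeR 4.0.16 (quasi-likelihood, TMM scaling, no covariate) in R 4.3.3. Tests were two-sided and p-values were adjusted over all tested genes by Benjamini-Hochberg at 0.05. The SE is the log2 fold change divided by the root of its F statistic. The script was tested on simulated data drawn with the same setting for spread in every library. That leaves out the wider spread between the empty vector libraries here. The alternatives were 3 other scalings, 2 other filters, DESeq2 1.42.0, a robust fit, protein coding genes alone, a replicate block and leaving out each library. Promoters and gene order came from RefSeq tables of GRCh38. Figures were made with Python 3.11.15, pandas 2.3.3 and matplotlib 3.10.9.

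The serpins and all lists of proteases, receptors, inhibitors and markers were chosen with earlier results of these data known. Of the 33 protein coding genes that meet the rule, 1 is not reported here, though it stayed in the fit over all genes. Every other tested serpin is named, and of each list up to 4 members past the test with the smallest adjusted p. Other genes of the lists were named for their known relation to a serpin, after their values were seen. Counting limits the precision of the low serpins: SERPINB2 rested on 42, 37 and 28 counts in the libraries labelled TAF1C and on 20 and 4 in the empty vector libraries.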

Additional observations from a re-analysis of the deposited data

How the results depend on the processing

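Over the 14 alternatives, 222 log2 fold changes of tested serpins were recomputed, and 10 changed sign, none of them among the 7 serpins past the test. Calls are compared only over the fits that kept both empty vector libraries, since the others hold no spread of that group. In these fits SERPINA1, SERPINH1, SERPINB6 and SERPINB8 always passed. A call was lost 15 times, in SERPINF1 (3), SERPINB9 (6) and SERPIND1 (6). SERPING1 alone gained a call, with DESeq2. SERPINB2 could not be tested in 2 of the 14 alternatives, since it fell below the minimum. Of the sign changes, whose cause was not tested, 6 came with other settings, in SERPINA5 with library totals (-0.26), upper quartile factors (-0.065) and protein coding genes alone (-0.050), SERPINB1 with library totals (-0.18) and upper quartile factors (-0.0030), and SERPINE3 with library totals (-0.0052). The other 4 came with a library left out, in SERPINA5, SERPINB1 and SERPINI1.

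Leaving out 1 library each, the log2 fold change ran from -0.75 to 1.69 for SERPINA5, from -0.36 to 0.60 for SERPINB1, from -1.04 to 0.03 for SERPINI1, from -5.55 to 0.50 for LRP2 and from -0.98 to 0.59 for LRP1. The count of raised serpins ran from 4 to 9 and of lowered serpins from 0 to 5, and over all genes from 1058 to 5967 raised and from 1960 to 5665 lowered. A single empty vector library in those fits is assumed to vary like the other group. With no filter 1 of 32 tested serpins fell and 4 rose, while 4304 of 50359 genes (8.55%) fell and 1817 (3.61%) rose. With filterByExpr 1 of 24 tested serpins fell and 5 rose, while 3865 of 27710 genes (13.9%) fell and 1989 (7.18%) rose. DESeq2 called 3678 genes raised and 4400 lowered.

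The labels number the replicates, but nothing says that a number marks a shared culture or day. Deviations from the group means correlated at 0.03 and 0.12 across genes for replicates 1 and 2. TAF1C replicate 3, which has no partner, gave 0.10 with empty vector replicate 1. With 2 empty vector libraries the deviations mirror each other, so these values cannot decide on pairs. The numbers were not taken as pairs, since no label states pairing. With the replicate block 4 serpins rose and 1 fell, and 1425 genes rose and 2662 fell. The calls of SERPINB9 and SERPIND1 were lost with it (edgeR adjusted p = 0.144 and 0.121), as were those of PLAU, PLGRKT, THBS1, S100A10, CASP8, CTSB, CST6, SORT1, LRP2 and APOC3. In the block fit TAF1C replicate 3 stands alone in its block and adds nothing to the comparison. Fewer libraries therefore carry that test, so the lost calls cannot be tied to pairing.

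With 3 and 2 libraries, serpins near 1 CPM had too few counts for a firm direction.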

Other observations

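A few serpin rows lay outside the symbols chosen. AGT, angiotensinogen, a clade A serpin that inhibits no protease and is the source of angiotensin, had 15, 8 and 12 counts in the libraries labelled TAF1C and 58 and 4 in the empty vector libraries. SERPINB11, listed as a polymorphic pseudogene, had 10, 4 and 7 counts against 6 and 4 with the empty vector. The pseudogenes SERPINA13P and SERPINA2P had at most 14 counts in any library. SERPINB8P1 had 2, 1 and 1 counts in the libraries labelled TAF1C and 10 and 2 with the empty vector. Empty vector replicate 1 stood above replicate 2 for each of these rows, as it did for 15 of the 16 chosen serpins below the minimum. Replicate 1 also had a count in more of all rows, at 80.1% against 64.7%.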
